A study of Mus musculus with 16 samples.

Results

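Cell cycle regulators were examined in mouse embryos at the two-cell stage, on 16 one-colour arrays of biotin-labelled total RNA. The regulators are 51 genes chosen by name: cyclins, cyclin-dependent kinases and their inhibitors, the anaphase-promoting complex and its partners, mitotic kinases, and the spindle checkpoint. They, and the related genes listed later, were chosen with earlier results of these data known. Of the 51, 50 had a probe set annotated to them alone, among 18193 such genes on the array. Each was read from its probe set with the highest mean over the 16 arrays. Ccnb1 was not analysed here. The test was run on 49, since Ccna1 (intensity 7.28 ± 3.31 in untreated BBB, SD, n = 4) did not pass the filter on low values. There were 4 groups of 4 arrays. In BBB embryos the ooplasm, the maternal pronucleus and the paternal pronucleus all came from strain B6. In BCB embryos the maternal pronucleus came from strain C3H, while ooplasm and paternal pronucleus were B6. Each kind was measured untreated and treated with α-amanitin (α-amantin in the labels), an inhibitor of RNA polymerase II. Dose and duration of the treatment, the number of embryos per sample and the origin of the replicates are not given in the labels, so the p-values reflect only how far these samples spread, which may be technical.

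Progress through the cell cycle is driven by cyclin-dependent kinases, which need a cyclin partner and are held back by inhibitory proteins and inhibitory phosphorylation. The anaphase-promoting complex ends mitosis and meiosis by marking cyclin B and securin for destruction, and the spindle checkpoint blocks that complex until chromosomes are attached. Mouse oocytes wait at metaphase of the second meiotic division with a store of maternal mRNA, which is degraded as the embryo switches on its own genome, for the most part at the two-cell stage.

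The deposited arrays share a common level: the mean of each array without its highest and lowest 2% of values was 150 on all 16. A change given here is on this array scale, as the log2 of intensity plus 16, unless stated. Control transcripts did not keep to that scale. The 9 hybridization control probe sets had a mean log2 of intensity plus 16 of 9.17 to 9.47 on untreated and 9.74 to 10.18 on treated arrays. For the 12 poly-A controls it was 7.46 to 8.02 and 9.07 to 9.89. The scaling to controls used their mean log2 intensity without the added 16. Scaled to the hybridization controls, the median change of all genes with amanitin moved from 0.11 to −0.23 in BBB and from 0.17 to −0.36 in BCB. With the poly-A controls as the scale it was −1.24 and −1.22. The falls described below kept their direction on each of these scales. Nearly all rises turned below 0 on the poly-A scale, and a rise means higher relative to the level to which the arrays were scaled. The total RNA per sample is not recorded, so fewer embryos and less RNA per embryo cannot be told apart.

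The labelled stage was checked against markers. The 6 measured two-cell markers (Zfp352 and Eif1a among them) summed to 10111–12285 in intensity on untreated and 521–887 on treated arrays, and the 10 oocyte markers to 12683–15058 and 23878–27192. The 11 measured cumulus and granulosa markers summed to 2108–2736 on untreated and 370.4–470.1 on treated arrays. Most of that sum was 1 gene, Amhr2 (2086 ± 211 in BBB and 58.9 ± 17.3 with amanitin, SD, n = 4), while Amh was at 1.77 ± 0.500 and Tnfaip6 at 6.20 ± 4.02 in untreated BBB. Of the 8 tested, Amhr2 was the 1 called lower, while 5 were called higher in BBB and 3 in BCB (median log2 changes 0.48 and 0.34). The 8 sperm markers summed to 54.9–162 over all arrays. The part of other cells in the results was not tested.

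The first question was which cell cycle transcripts depend on transcription by the embryo. In BBB embryos 24 of the 49 regulators were lower with amanitin and 22 higher (limma, with p adjusted by Benjamini-Hochberg across the 31934 probe sets that were tested and a threshold of 0.05), where 33.2% of all 15258 genes were lower and 37.1% higher. In BCB embryos 23 were lower and 22 higher, against 32.0% and 39.9% of all genes. Falls of at least 2-fold were seen in 19 regulators in each kind, against 21.9% of all genes in BBB and 21.1% in BCB. Rises of at least 2-fold were seen in 8 in each kind, against 16% and 16.2%. The median log2 change of the regulators was −0.10 in BBB and −0.015 in BCB, and their range was −4.26 to 1.80 and −4.55 to 1.77. On the hybridization scale 25 of the 49 were lower and 11 higher in BBB, against 42.8% and 21.9% of all genes, and 30 and 6 in BCB, against 48.0% and 15.2%. On the poly-A scale 45 were lower in BBB and 46 in BCB, where 84.6% and 84.4% of all genes were lower too. None was higher there, against 0.767% and 0.629% of all genes. Some rises stayed above 0 on the hybridization scale but did not pass: Rb1, Ccnb2, Plk4, Mad2l1, Ttk, Aurkc and Cenpe in BBB, and Mos, Wee2, Ccnb3, Ccnd3 and Rbl1 in BCB.

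The calls were also counted by phase, with no test between phases. Of all genes, 37.1% were higher and 33.2% lower in BBB, and 39.9% and 32.0% in BCB. Of 11 regulators of meiotic arrest and exit, 6 were higher and 4 lower in each kind. Of 15 for the G1/S transition, 7 were higher and 7 lower in BBB, and 7 and 6 in BCB. Of 11 for the G2/M transition, 3 were higher and 7 lower in BBB, and 4 and 7 in BCB. Of 12 for the spindle checkpoint and kinetochore, 6 were higher and 6 lower in BBB, and 5 and 6 in BCB. The median log2 changes in BBB were 0.47, −0.10, −1.18 and −0.012 in this order, and 0.55, 0.24, −1.48 and −0.20 in BCB. Several of these medians changed sign with the processing. That of meiotic arrest and exit was −0.049 and −0.25 on the hybridization scale and −0.98 and −1.01 on the poly-A scale, and in BCB −0.015 with quantile normalization and with probe sets averaged per gene. That of G1/S in BBB was 0.23 with quantile normalization and 0.015 with the mean of probe sets, and in BCB −0.41 and −1.35 on the hybridization and poly-A scales. That of the checkpoint group in BBB was 0.086 with array medians centred, 0.15 with the mean of probe sets, 0.0096 without BBB replicate 3 and 0.010 without BBB_amanitin replicate 4. The G2/M median was negative under every alternative in both kinds.

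**Figure D1:**
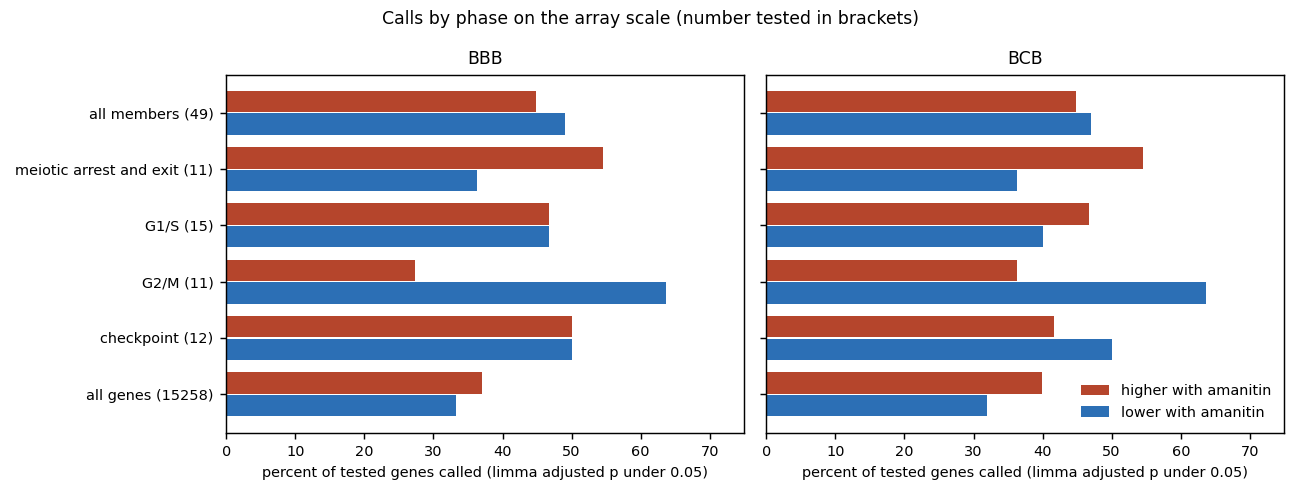
Percent of tested genes called higher (red) or lower (blue) with amanitin on the array scale, for all 49 regulators, for each phase and for all 15258 genes, in BBB (left) and BCB (right). The G2/M bars show 63.64% lower in both kinds, and all higher calls of regulators end on the poly-A scale.

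Among the regulators of meiotic arrest and exit, the sharpest fall was that of Fbxo5 (Emi1), an inhibitor of the anaphase-promoting complex outside meiotic arrest. Its intensities were 1722, 1764, 2027 and 1894 on the BBB arrays and 164, 106, 147 and 134 with amanitin, 1917, 1694, 1762 and 1663 in BCB and 174, 161, 181 and 149.7 with amanitin. The groups were far apart, with a log2 change of −3.61 ± 0.11 (SE; adjusted p 4.54e-18) in BBB and −3.28 ± 0.11 (2.07e-17) in BCB. Its relative Fbxo43 (Emi2), which holds the complex inactive during the meiotic arrest, was dim. It was at 14.6 ± 4.25 in BBB and 15 ± 5.02 with amanitin (SD, n = 4) and did not pass in either kind (0.014 and −0.015). On the poly-A scale it passed as lower in both kinds (−0.92, adjusted p 7.43e-05, and −1.01, 1.95e-05). It also passed as lower in BCB on the hybridization scale (−0.42, 0.0371).

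Wee2, Mos and Ccnb3, which act in oocyte meiosis, were higher on the array scale. Wee2, the Wee1-type kinase of oocytes that inhibits Cdk1, was at 3169, 3043, 3867 and 3796 on the BBB arrays and at 6529, 7317, 6259 and 7087 with amanitin. In BCB it was at 3511, 3114, 3123 and 3548 and 6607, 6291, 6790.1 and 7089. All treated arrays lay above all untreated ones, and the changes were 0.97 ± 0.079 and 1.01 ± 0.079, though −0.98 and −0.98 on the poly-A scale. Mos, the kinase that keeps oocytes in metaphase arrest, was low untreated (17.7, 13.5, 20.7 and 11 in BBB) and higher with amanitin (52.9, 24.2, 53.2 and 54.4), a change of 0.94 ± 0.19, or 0.97 ± 0.19 in BCB. The treated array of BBB at 24.2 was still above every untreated BBB array. Ccnb3, a cyclin of the first meiotic division, changed by 1.13 in BBB and 0.75 in BCB, where 1 treated array (54) lay within the untreated range. Scaled to the poly-A controls, Mos was at −0.25 and Ccnb3 at −0.49 in BBB.

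The activators of the anaphase-promoting complex moved apart. Cdc20, the activator used in metaphase, was at 3253, 3715, 3119.6 and 3299 on the BBB arrays and 777, 684, 661 and 772 with amanitin. It fell in both kinds, with a log2 change of −2.19 ± 0.081 (adjusted p 1.07e-16) in BBB and −2.22 ± 0.081 in BCB. Fzr1 (Cdh1), the activator used in late mitosis and G1, was at 98.8, 102, 112 and 92.1 in BBB and 186, 253, 251 and 210.2 with amanitin, with changes of 1.03 ± 0.13 and 1.18 ± 0.13, which turned to −0.73 and −0.62 on the poly-A scale. Anapc1, the scaffold of the complex, was also higher (1052 ± 84.7 to 2294 ± 109.7 in BBB, SD, n = 4), by 1.12 and 1.17, or −0.82 and −0.80 on the poly-A scale. Cdc27, the subunit that binds the activators, fell from 887 ± 49.9 to 162 ± 24.9 in BBB, with changes of −2.35 there and −2.51 in BCB. Of the pair that controls the cohesin ring, separase (Espl1) fell from 1974 ± 92.9 to 812 ± 89.5 in BBB (log2 change −1.27, and −1.43 in BCB). Its inhibitor securin (Pttg1) was slightly higher in both kinds (0.47 and 0.55), but was below 0 with quantile normalization (−0.17 and −0.11), on the hybridization scale (−0.049 and −0.25) and on the poly-A scale (−1.48 and −1.44). These lower values passed, except that on the hybridization scale in BBB.

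**Figure D2:**
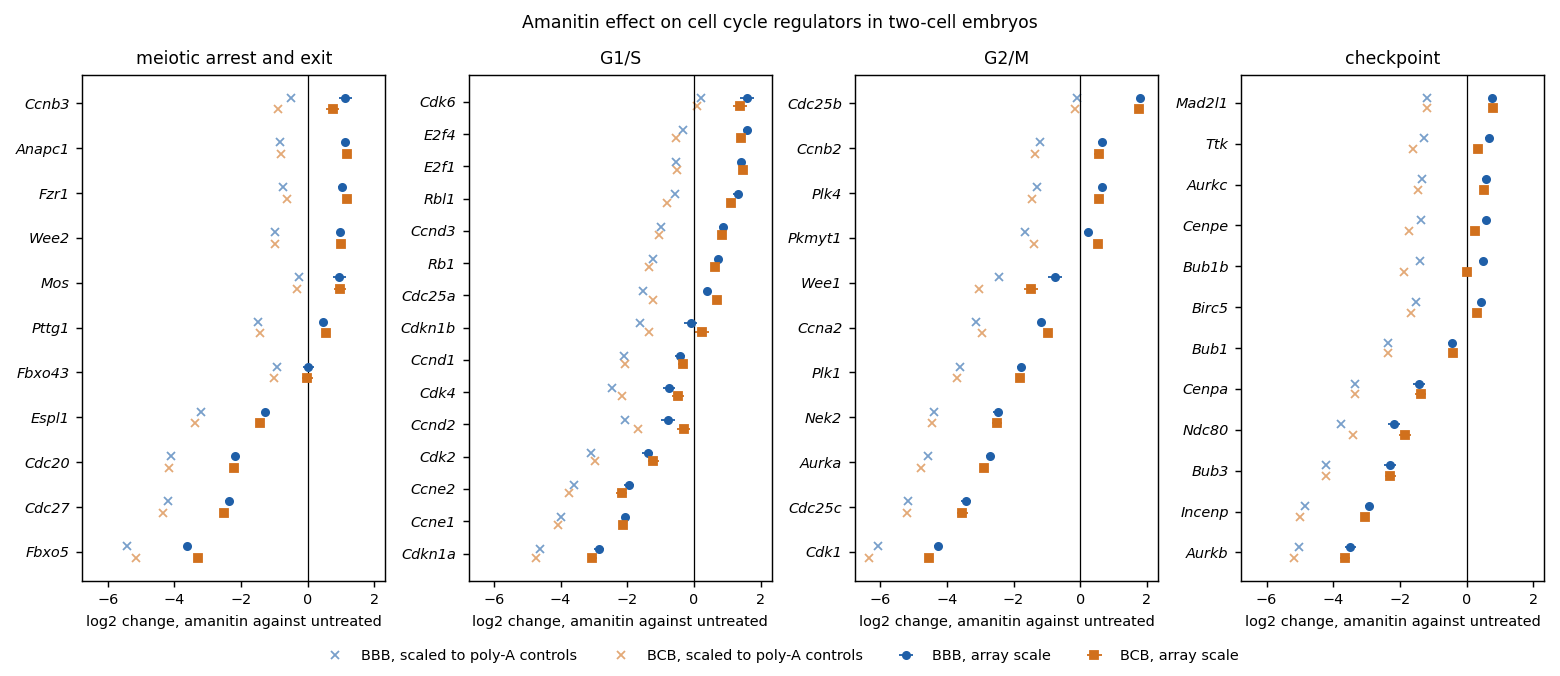
Log2 change with amanitin for the 49 tested regulators by phase, in BBB (blue) and BCB (orange), on the array scale (filled, with SE) and scaled to the poly-A controls (crosses). Cdk1 lies lowest at −4.26 and −4.55, and of the regulators above 0 on the array scale only Cdk6 stays above 0 on the poly-A scale in both kinds, at 0.21 and 0.10 without a call.

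In the G1/S group the cyclin E and Cdk2 pair fell, while the retinoblastoma and E2F genes were higher on the array scale. Cyclin E1 (Ccne1), which with Cdk2 starts DNA replication, was at 2237, 2607, 2997 and 2945 on the BBB arrays and 595, 606, 606 and 706 with amanitin. The 4 treated arrays lay far below the untreated ones, with log2 changes of −2.07 ± 0.091 in BBB and −2.12 ± 0.091 in BCB (SE). Ccne2 (−1.95 and −2.17) fell from 259 ± 15.3 to 55.4 ± 4.28 in BBB, and Cdk2 (−1.39 and −1.22) from 232 ± 20.8 to 79.3 ± 15.2.

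The inhibitor p21 (Cdkn1a), which blocks cyclin-dependent kinases after stress, had the largest fall of the group. It was at 763, 723, 927 and 988 in BBB and 124, 127, 78.5 and 87.8 with amanitin, and at 640.3, 697, 679 and 675 in BCB and 73.4, 70.5, 75.7 and 52 with amanitin. Treated and untreated arrays did not overlap, and the changes were −2.86 ± 0.14 (adjusted p 2.56e-14) and −3.05 ± 0.14 (8.17e-15). The related inhibitor p27 (Cdkn1b) was at 59.4 ± 11.3 and 54.0 ± 8.88 in BBB and did not pass in either kind (−0.10 ± 0.21 and 0.24 ± 0.21). In BCB it passed as higher with quantile normalization (0.53, adjusted p 0.0231) and as the mean of its probe sets (0.47, 0.0188), and in BBB as lower on the hybridization scale (−0.51, 0.0406) and on the poly-A scale (−1.61).

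E2f1, an activating E2F factor of S-phase genes, was at 1042, 1131, 1409 and 1319 on the BBB arrays and at 2991, 3583, 3341 and 3096 with amanitin. Its changes were 1.40 ± 0.093 and 1.46 ± 0.093, with no overlap of treated and untreated arrays. E2f4, the repressive E2F of resting cells, changed by 1.58 and 1.42 (577 ± 96.2 to 1751 ± 159 in BBB), and the pocket proteins Rbl1 (p107) by 1.31 and 1.11 and Rb1 by 0.71 and 0.63. With the poly-A controls as scale, E2f1 was at −0.54 and −0.51, E2f4 at −0.34 and −0.54, Rbl1 at −0.58 and −0.81 and Rb1 at −1.24 and −1.35. Scaled to the hybridization controls, Rb1 was at −0.16 in BCB.

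The D cyclins and their kinases, which act on the retinoblastoma protein, were of low to moderate intensity. Cyclin D3 (Ccnd3) was higher (206 ± 15.8 to 389 ± 49.5 in BBB), by 0.86 and 0.83, or −0.99 and −1.04 on the poly-A scale. Ccnd1 was slightly lower (−0.42 in BBB, adjusted p 0.0118, and −0.34 in BCB, 0.0399), and this call ended in both kinds with array medians centred (adjusted p 0.0517 and 0.0564) and in BCB with the replicate block (0.0501). It also ended without BBB replicate 4 (0.0621) and, in BCB, without any 1 of 6 arrays (BCB replicates 2, 3 and 4 and BCB_amanitin replicates 1, 2 and 4, 0.0501 to 0.133). With quantile normalization Ccnd1 was at −0.052 and 0.0046, neither passing. Ccnd2 was lower in BBB (−0.79, adjusted p 0.0017) and did not pass in BCB (−0.31, 0.182), with an interaction of 0.48 ± 0.29 (adjusted p 0.7). Without BCB replicate 1 it passed in BCB too (0.0188). Cdk6 was higher, from 14.7, 22.1, 13.3 and 26.5 to 90.4, 119, 83.7 and 68 on the BBB arrays, by 1.59 ± 0.21 and 1.38 ± 0.21. Cdk4 was lower (−0.74 and −0.48), a call that ended in BCB without BCB replicate 3 (adjusted p 0.0741) and without BCB_amanitin replicate 3 (0.0569), and in both kinds with quantile normalization (0.0752 and 0.488). As the mean of its probe sets Cdk4 was at 0.015 and 0.18, with no call. In BBB the treated and untreated arrays of Ccnd1 and of Cdk4 overlapped. Cdc25a, the phosphatase that opens S phase, changed by 0.40 and 0.70, and was at −0.12 and −0.079 on the hybridization scale and −1.52 and −1.24 on the poly-A scale.

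The G2/M group held the largest fall of all regulators, in Cdk1, the main mitotic kinase. Its intensities were 2963, 2876, 2796 and 2720 on the BBB arrays and 2816, 3041, 2934 and 2709 on the BCB arrays, and 158, 108, 159.7 and 112 and 123, 119, 88.6 and 101 with amanitin. Treated arrays kept a small part of the untreated intensity in both kinds (−4.26 ± 0.12, adjusted p 8.59e-19, and −4.55 ± 0.12, adjusted p 2.93e-19). Its activating phosphatases went opposite ways on the array scale. Cdc25c was at 988, 1038, 935 and 857 in BBB and 82.7, 89.1, 59.9 and 65.8 with amanitin, and fell, with changes of −3.43 ± 0.16 in BBB and −3.54 ± 0.16 in BCB. Cdc25b, which mouse oocytes need to resume meiosis, was at 337, 335, 498 and 445 in BBB and 1409, 1448, 1335 and 1525 with amanitin. It was higher by 1.80 ± 0.12 and 1.77 ± 0.12, the largest log2 rise among the regulators on the array scale. This rank rests on the constant added before the log2, since the mean intensity of the dimmer Cdk6 rose by a larger factor. Cdk6 went from 19.15 to 90.15 in BBB and from 14.65 to 64 in BCB. Cdc25b went from 403 to 1429 and from 375 to 1318. On the poly-A scale Cdc25b was at −0.11 and −0.17 and Cdk6 at 0.21 and 0.10, and neither passed.

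The inhibitory kinases of Cdk1 also differed. Unlike Wee2, which was higher on the array scale, its somatic counterpart Wee1 fell. Wee1 was at 134, 174, 195 and 126 in BBB and 116, 83.9, 91.3 and 58 with amanitin, and at 147, 121, 169.5 and 212 in BCB and 45.7, 71.2, 34.9 and 41.4 with amanitin. The changes were −0.76 ± 0.20 (adjusted p 0.00176) in BBB and −1.48 ± 0.20 (5.3e-07) in BCB, and the difference of −0.72 ± 0.28 did not pass (adjusted p 0.446). Quantile normalization ended the call in BBB (0.0901). Pkmyt1, the membrane-bound kinase of this kind, passed in BCB (0.53; BBB 0.22, adjusted p 0.102), its interaction of 0.31 did not pass (0.639), and without BBB replicate 3 it passed in BBB too (0.0437). It also passed in BBB with quantile normalization (0.00241) and array medians centred (0.0152), and lost its call in BCB as the mean of its probe sets (0.388). On the hybridization scale it was at −0.24 in BCB, and on the poly-A scale at −1.65 and −1.38.

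Aurka, Nek2 and Plk1, kinases of mitosis, fell too. Aurora A (Aurka), which builds spindle poles, was at 1358, 1437, 1389 and 1465 in BBB and 196, 184, 199.5 and 223 with amanitin, and fell, with changes of −2.72 ± 0.11 and −2.90 ± 0.11. Nek2, which splits centrosomes, changed by −2.48 and −2.50 (2455 ± 258 to 434 ± 96.9 in BBB), and Plk1, a kinase of mitotic entry and exit, by −1.78 and −1.82 (692 ± 40.9 to 189.9 ± 10.6). Plk4, the kinase of centriole duplication, was instead higher (3384 ± 295 to 5327 ± 296), by 0.65 and 0.55, or −0.25 in BCB on the hybridization scale and −1.30 and −1.43 on the poly-A scale. Quantile normalization ended both calls of Plk4 (0.064, adjusted p 0.341, and 0.0013, 0.986). Of the cyclins of this phase, Ccna2 changed by −1.18 and −0.97 (5086 ± 328 to 2246 ± 238 in BBB). Ccnb2 was higher (275 ± 32.2 to 444 ± 62.0), by 0.66 and 0.55, or −0.22 in BCB on the hybridization scale and −1.21 and −1.36 on the poly-A scale.

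**Figure D3:**
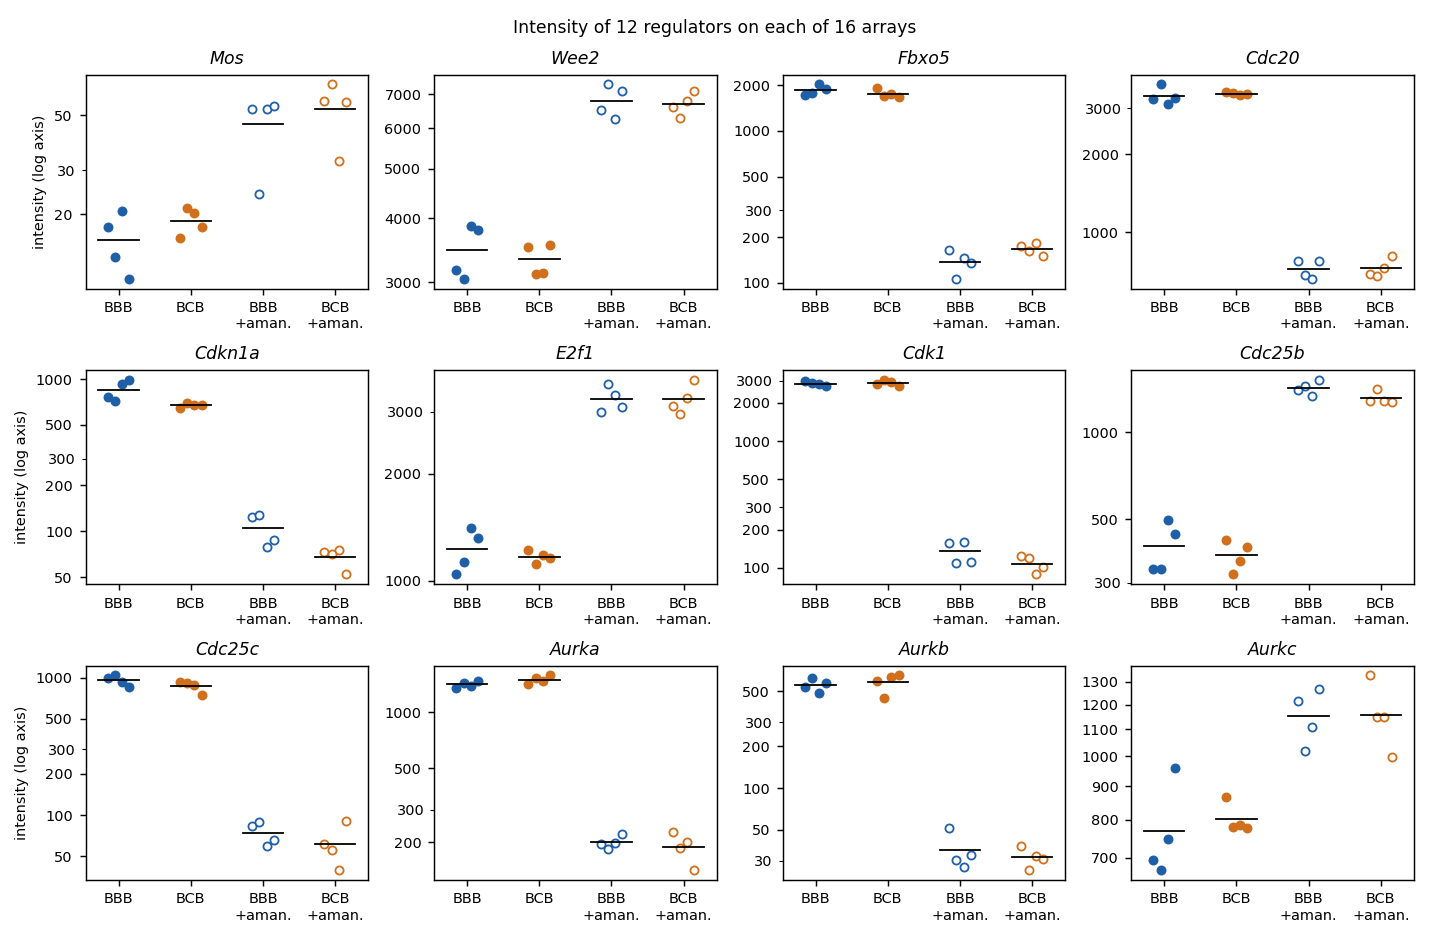
Intensity (log axis) of 12 regulators on each array, untreated (filled) and with amanitin (open), in BBB (blue) and BCB (orange), with the group mean as a line. The 12 were chosen for display, and treated and untreated arrays of a kind do not overlap in any of these panels. Among called regulators not shown, they overlap for Ccnd1 and Cdk4 in BBB and for Ccnb3, Bub1, Ttk and Cenpe in BCB. The higher levels of Mos, Wee2, E2f1, Cdc25b and Aurkc are on the array scale, since all 5 are below 0 scaled to the poly-A controls.

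Many genes of G2 and mitosis are controlled by the DREAM and MuvB complexes through a promoter element called CHR, often beside CCAAT boxes, which bind NF-Y. Promoter sequences from RefSeq (build GRCm38.p6, 250 bases before to 50 after a listed start) matched 37 of the 50 regulators, and for the 3 with more than 1 start the first listed was taken. The windows were searched on both strands for the letters TTTGAA (CHR), CCAAT, and the E2F letters TTTCCCGC, TTTGGCGC, TTTCGCGC or TTTGCCGC, and no matches in these windows overlapped. The CHR letters were in 9 of the 16 matched regulators that were lower in both kinds (56.2%) and in 2 of the 18 that were higher in both (11.1%), against 17.9% of all 32851 windows in the table. CCAAT was in 12 (75%) and 8 (44.4%), against 37.4%, and the E2F letters were in 2 of each (12.5% and 11.1%), against 2.3%. CHR and CCAAT together were in 8 (50%) and 2 (11.1%), against 7.0%. Among the lower ones, those without CHR were Ccne1, Cdk2, Cdk4 and Cdkn1a of G1/S, and Cdc27, Nek2 and Bub1. Lower and higher are calls on the array scale, the 2 sets differ in their phases, and the part of phase was not tested. These are counts of letters with no test, and a match is not a bound site.

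Among the matched regulators with 1 listed start, the 3 largest falls and the largest rise by log2 change on the array scale are shown. Ccnb2 is added as a rise that carries the CHR letters. Cdkn1a is added since it fell more than Aurka and has more than 1 listed start. Aurkb, Cdc25c and Incenp also fell more than Aurka but had no matched window. The capitals mark matches, with CCAAT read as ATTGG and TTTGAA as TTCAAA on the other strand. Cdk1 (chr10:69352863-69353162, minus strand) has 2 CHR, 3 CCAAT and 1 E2F match:
Cdk1: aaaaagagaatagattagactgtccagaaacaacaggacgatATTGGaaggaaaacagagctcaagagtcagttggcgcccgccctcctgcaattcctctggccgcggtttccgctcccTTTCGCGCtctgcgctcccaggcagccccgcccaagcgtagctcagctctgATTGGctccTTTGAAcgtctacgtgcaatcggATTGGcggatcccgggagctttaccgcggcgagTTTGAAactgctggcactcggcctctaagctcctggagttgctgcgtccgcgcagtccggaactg
Fbxo5 (chr10:5805416-5805715, minus strand) has 1 CHR and 3 CCAAT matches:
Fbxo5: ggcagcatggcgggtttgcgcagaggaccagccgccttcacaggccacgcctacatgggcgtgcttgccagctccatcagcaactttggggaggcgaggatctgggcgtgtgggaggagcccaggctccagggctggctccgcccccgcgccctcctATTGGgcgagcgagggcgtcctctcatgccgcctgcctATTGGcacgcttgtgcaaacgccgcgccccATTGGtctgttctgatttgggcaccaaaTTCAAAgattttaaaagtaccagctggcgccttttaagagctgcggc
Aurka (chr2:172370521-172370820, minus strand) has 1 CHR and 2 CCAAT matches:
Aurka: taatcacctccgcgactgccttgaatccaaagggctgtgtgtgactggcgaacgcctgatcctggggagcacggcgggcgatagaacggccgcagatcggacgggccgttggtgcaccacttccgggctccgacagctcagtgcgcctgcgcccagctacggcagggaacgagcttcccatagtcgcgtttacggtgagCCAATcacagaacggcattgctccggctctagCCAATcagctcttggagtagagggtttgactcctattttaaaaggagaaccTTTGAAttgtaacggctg
Cdc25b (chr2:131186698-131186997, plus strand) has 1 CCAAT match and no CHR match:
Cdc25b: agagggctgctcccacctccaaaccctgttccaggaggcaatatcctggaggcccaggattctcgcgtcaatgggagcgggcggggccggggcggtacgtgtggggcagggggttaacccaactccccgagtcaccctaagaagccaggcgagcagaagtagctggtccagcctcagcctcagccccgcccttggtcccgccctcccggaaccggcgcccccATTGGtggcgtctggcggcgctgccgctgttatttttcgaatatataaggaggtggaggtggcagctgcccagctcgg
Ccnb2 (chr9:70421505-70421804, minus strand) has 2 CHR and 3 CCAAT matches:
Ccnb2: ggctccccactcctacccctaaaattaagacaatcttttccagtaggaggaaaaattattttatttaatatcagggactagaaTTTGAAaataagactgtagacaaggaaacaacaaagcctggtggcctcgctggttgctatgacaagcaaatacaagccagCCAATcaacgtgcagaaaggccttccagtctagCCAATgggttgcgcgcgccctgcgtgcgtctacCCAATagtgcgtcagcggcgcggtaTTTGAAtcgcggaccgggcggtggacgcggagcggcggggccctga
Cdkn1a (chr17:29090729-29091028, plus strand, first listed start) has no match of any of these letters:
Cdkn1a: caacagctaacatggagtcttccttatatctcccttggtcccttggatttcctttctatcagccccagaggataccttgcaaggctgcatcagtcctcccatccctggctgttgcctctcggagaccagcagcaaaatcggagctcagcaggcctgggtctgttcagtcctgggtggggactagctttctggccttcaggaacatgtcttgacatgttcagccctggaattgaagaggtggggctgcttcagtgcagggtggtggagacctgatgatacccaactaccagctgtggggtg

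In the checkpoint and kinetochore group, the chromosomal passenger complex, which corrects wrong attachments, was split. Aurora B (Aurkb), its kinase in somatic cells, was at 539.5, 619.5, 486 and 573 on the BBB arrays and 51.3, 30.5, 27.2 and 33.2 with amanitin, and fell, with changes of −3.48 ± 0.15 (adjusted p 1.79e-15) in BBB and −3.64 ± 0.15 in BCB. Aurora C (Aurkc), its kinase in germ cells, was at 695, 671, 749 and 962 and 1216, 1021, 1108 and 1268, and was higher by 0.58 ± 0.11 and 0.51 ± 0.11. It was at −0.27 in BCB on the hybridization scale and at −1.34 and −1.45 on the poly-A scale. Incenp, the scaffold of the complex, fell from 5357 ± 262 to 700.3 ± 156 in BBB (−2.93, and −3.04 in BCB). Survivin (Birc5), which places the complex on chromosomes, was slightly higher (0.42 and 0.31), though below 0 with quantile normalization (−0.098 and −0.16), on the hybridization scale (−0.10 and −0.48) and on the poly-A scale (−1.53 and −1.67). The lower values passed under all of these in BCB, and in BBB on the poly-A scale alone.

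Of the checkpoint proteins that inhibit Cdc20, Bub3 (−2.30 in BBB and −2.29 in BCB) fell from 2459 ± 126 to 504 ± 159 in BBB, and Bub1 fell slightly (−0.44 and −0.42). Mad2l1 (Mad2), of the same inhibitor, was at 2615, 2602, 3144 and 2924 in BBB and 4471, 4919, 4961 and 4903 with amanitin, higher by 0.77 and 0.79. Ttk (Mps1), the kinase that starts checkpoint signalling, was higher by 0.66 ± 0.11 in BBB and 0.35 ± 0.11 in BCB. Poly-A scaling put Mad2l1 at −1.18 and −1.20 and Ttk at −1.28 and −1.62, and on the hybridization scale they were at −0.0091 and −0.44 in BCB. Bub1b (BubR1) passed in BBB (0.48, adjusted p 0.000358; −0.016 on the hybridization and −1.38 on the poly-A scale) and not in BCB (0.023, 0.856), and its interaction of −0.46 ± 0.15 did not pass (0.32). With quantile normalization Bub1b passed in BCB too (0.24, adjusted p 0.0479), while Ttk lost its call there (0.116). On the hybridization scale both passed as lower in BCB (Bub1b −0.74, adjusted p 6.22e-05, and Ttk 0.00753). The same held on the poly-A scale (Bub1b −1.88, 1.94e-11, and Ttk 5.45e-10). In BCB the treated and untreated arrays of Bub1 and Ttk overlapped.

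At the kinetochore, Ndc80, which binds microtubules, fell from 259.8 ± 34.9 to 45.7 ± 13.5 in BBB (−2.18, and −1.85 in BCB). The centromeric histone Cenpa (−1.42 and −1.38) fell from 2728 ± 92.8 to 1023 ± 203 in BBB, and to 1568, 1375, 1063 and 641 on the treated BCB arrays, a wide spread. Cenpe, a kinetochore motor, was higher in BBB (0.58) and slightly so in BCB (0.25, adjusted p 0.0262), where treated and untreated arrays overlapped. Its call in BCB ended without BCB replicate 1 (0.0694), BCB replicate 4 (0.0803), BCB_amanitin replicate 3 (0.104) or BCB_amanitin replicate 4 (0.0971), with quantile normalization (0.32) and without an intensity trend (0.0692). It passed as lower at −0.54 in BCB on the hybridization scale and at −1.36 and −1.72 on the poly-A scale.

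Several regulators did not have a common direction over their probe sets. Of the 50, 33 had more than 1 probe set, 114 in all with 100 tested. In 10 of them another probe set was called in the direction opposite to the one read, in BBB, and in 9 of these also in BCB. The share of all genes with opposite probe sets was not counted, so the 10 are not shown to differ from other genes. Rbl1, Ccna2, Bub1 and Cenpe each had 1 other tested probe set, and it was the opposite one. For Ccna2 it was at 1047, 1107, 1354 and 1398 in BBB and 2305, 2414, 2412 and 2659.5 with amanitin, higher by 0.996 and 0.92. For Rbl1 it gave −1.44 and −1.39, for Cenpe −0.44 and −0.44, and for Bub1, at a mean of 7.55 in BBB and 31.9 with amanitin, 1.04 and 0.92.

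The remaining genes had further probe sets beside the opposite one, which were called as the one read was or did not pass. Pttg1 fell on 1 (−2.78 and −2.45), from 199, 210.3, 188 and 213 to 5, 24.8, 15.4 and 21.5 on the BBB arrays, while another was higher like the one read in BBB (0.33) and did not pass in BCB (0.20). Cdc27 was higher on 1 (0.81 and 0.50), fell like the one read on another (−1.68 and −2.07), and on the last was at −0.23 with no call in BBB and lower at −0.34 in BCB. Nek2 fell on a further probe set as on the one read (−2.50 and −2.07), the opposite one was dim, at 8.62 in BBB and 21.6 with amanitin (0.61 and 0.58), and the last did not pass. Bub3 was opposite on 1 (0.78 and 0.86) and fell on another that was dim (−0.69 and −0.51). Cdk4 was opposite on 1 (1.09 and 1.06) and did not pass on another (−0.30 and −0.033). Ccnd1 was higher in BBB on 1 (0.33, adjusted p 0.0488, a call lost under most of its alternatives) that was lower in BCB (−0.48), and on another was at −0.30 with no call in BBB and lower at −0.93 in BCB. The rises on the opposite probe sets turned below 0 on the poly-A scale in each kind where they were called, except that of Bub1 in BBB, which was at 0.098. Averaged over probe sets, Pttg1 was at −0.66 and −0.57, Rbl1 at −0.066 and −0.14, Bub1 at 0.30 and 0.25, and Cenpe at 0.072 and −0.095. The fall of Ccna2 was then −0.090 and −0.028, without a call (adjusted p 0.333 and 0.766), and the rise of Rb1 lost its call (0.24, 0.0607, and 0.097, 0.434). The position of a probe set in its transcript is not in the files used here.

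**Figure D4:**
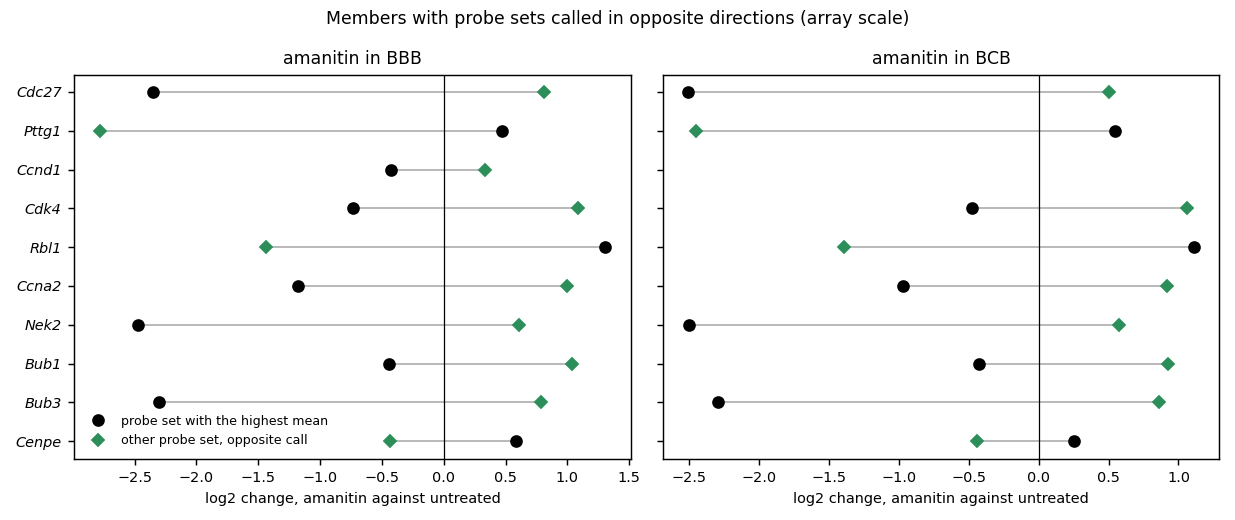
Log2 change with amanitin on the array scale for the 10 regulators with probe sets called in opposite directions, in BBB (left) and BCB (right): the probe set read (circle) and the one called in the opposite direction (diamond), with further probe sets not shown. The pair of Cdc27 spans −2.35 to 0.81 in BBB, and rises shown here turn below 0 on the poly-A scale, except that of the opposite Bub1 probe set in BBB.

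Beyond the 51, a list of 126 related cell cycle genes (further subunits of the anaphase-promoting complex, kinetochore, cohesin, checkpoint and E2F genes) had 125 tested. In BBB 62 were lower and 41 higher with amanitin, beside 33.2% and 37.1% of all genes, and in BCB 61 and 43, beside 32.0% and 39.9%. Their median changes were −0.29 and −0.35, against 0.11 and 0.17 over all genes. Mad2l1bp, which removes Mad2 from its complexes, fell from 2154 ± 90.9 to 69.9 ± 14.4 in BBB (−4.67, and −4.69 in BCB). Stil, a centriole assembly factor, changed by −4.41 and −4.17, E2f7, a repressive E2F, by −4.30 and −4.06, and the checkpoint kinase Chek2 by −4.27 and −4.03. Anapc7, of the anaphase-promoting complex, changed by −3.83 and −4.32, and Trip13, a remodelling ATPase that acts with Mad2l1bp, by −4.15 and −4.18. Among called genes without overlap of treated and untreated arrays, the largest rises were those of Ccni, a cyclin (2.62 and 2.81), and the cohesin loader Nipbl (2.52 and 2.57). The others among the 4 largest in either kind were Nek7, a mitotic kinase (2.17 and 1.81), and Nuf2, a partner of Ndc80 (2.03 and 1.94). Arpp19, an inhibitor of the phosphatase that opposes Cdk1 (1.98 and 1.97), was a further one. On the poly-A scale Ccni (0.69 and 0.85) and Nipbl (0.58 and 0.60) stayed higher and kept their calls, while Nek7, Nuf2 and Arpp19 lost theirs and were below 0 in BCB (−0.098, −0.025 and −0.0077).

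The second question was whether the strain of the maternal pronucleus altered these transcripts. Read from their main probe sets, none of the 49 regulators passed in untreated BCB against BBB embryos (limma), where 0.380% of all genes were higher and 0.269% lower. An unadjusted p under 0.05 was reached by 7 of the 49, a larger share than the 7.07% of all genes, and the shares were not tested. The differences ran from −0.42 to 0.36. The most negative was that of Ndc80, at 307, 261, 225 and 246 in BBB and 230.3, 182, 199 and 154 in BCB, with overlapping arrays (−0.42 ± 0.17, adjusted p 0.567). Bub1 was at 749, 785, 829 and 802 and 641, 652, 584 and 594, lower in all 4 BCB arrays (−0.35 ± 0.11, 0.252), and Bub1b was at 319, 272, 264 and 251 and 372, 371, 384 and 314 (0.36 ± 0.11, 0.187). With array weights these last 2 passed (adjusted p 0.046 and 0.0386), where 117 of all genes were higher and 123 lower, against 58 and 41 without weights. Among the further probe sets 1 was called, of Ccnd1, at 28.8, 27.4, 28.3 and 31.1 in BBB and 45.2, 56.4, 60.9 and 55.9 in BCB. All 4 BCB arrays lay above all BBB arrays (0.65 ± 0.15, adjusted p 0.0356), whereas the Ccnd1 probe set read was at 0.0083 ± 0.14 (adjusted p 1). That call ended under 12 alternatives: leaving out any 1 untreated array but BCB replicate 1 (0.0859 to 0.17), quantile normalization (0.0991), the poly-A scale (0.0599), a pseudocount of 1 (0.0797), no filter (0.063) and the replicate block (0.059), and its adjusted p was 0.00437 to 0.17 over all alternatives. The amanitin effect on this probe set differed by −0.81 ± 0.21 between the kinds, which did not pass (0.134). With amanitin and in the interaction none of the further probe sets passed. In simulated data 84.0% of log2 changes of 1 and all of 2 were recovered in this comparison, so that smaller differences may go undetected. Among the related genes Kif11, a spindle motor, was the 1 call, higher in BCB (106 ± 20.9 to 179 ± 30.7, 0.68, adjusted p 0.0401). Its call ended without any 1 of 6 untreated arrays (all but BBB replicate 2 and BCB replicate 4, 0.0699 to 0.206). It also ended with array medians centred (0.053), on the poly-A scale (0.166), with a pseudocount of 1 (0.114), with no filter (0.0605) and as the mean of its probe sets (0.0832), and its adjusted p was 0.00559 to 0.206 over all alternatives.

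With amanitin none of the 49 passed between BCB and BBB either, where 0.0393% of all genes were higher and 0.0393% lower. Here 10 of the 49 reached an unadjusted p under 0.05, a larger share than the 10.7% of all genes, again without a test. Ttk came nearest, at 2318, 2182, 2092 and 2366 in treated BBB and 1454, 1662, 1806 and 1292 in treated BCB. Every treated BCB array lay below every treated BBB array (−0.53 ± 0.11, adjusted p 0.0554), and the test passed with array medians centred (0.0376) and without BCB replicate 1 (0.0462). Of all genes, 4 were higher and 10 lower with array medians centred, and 5 and 8 without BCB replicate 1. Wee1 had the most negative difference (−0.68 ± 0.20, 0.204) and Cdkn1b the most positive (0.48 ± 0.21, 0.393). For p21 the difference was −0.51 ± 0.14 (0.195), and untreated it was −0.32 ± 0.14 (0.664), with no overlap of the groups in either. Beside Ttk and p21, arrays of the kinds did not overlap for Ccnd2 and Pkmyt1 with amanitin, and for Bub1, Cdc25a and Nek2 untreated. The share of all genes without overlap was not counted.

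The interaction, which takes the change with amanitin in BBB from that in BCB, passed for none of the 49. Of all genes, 0.0655% were positive and 0.190% negative. For the interaction 5 of the 49 reached an unadjusted p under 0.05, a slightly larger share than the 8.05% of all genes. The interaction values ran from −0.72 (Wee1) to 0.48 (Ccnd2), with a median standard error over all genes of 0.235. These contrasts share arrays, so the values of 1 gene in several of them are not independent.

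**Figure D5:**
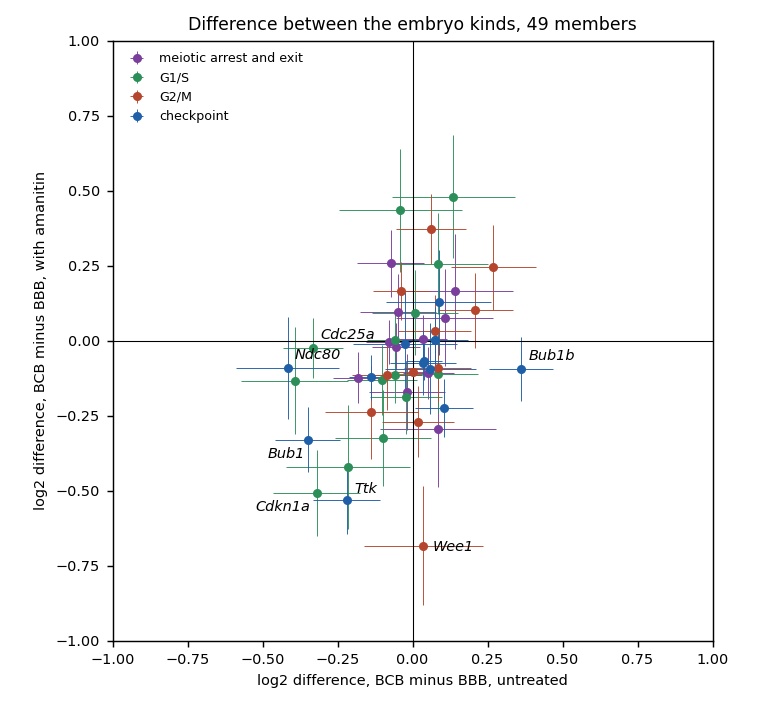
Log2 difference of BCB minus BBB embryos, untreated (horizontal axis) and with amanitin (vertical axis), for 49 regulators coloured by phase, with SE. The values run from −0.42 to 0.36 untreated and from −0.68 to 0.48 with amanitin, none of these probe sets passed the test on either, and Wee1 (−0.68) and Ttk (−0.53) lie lowest on the vertical axis.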

How the data were processed

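Total RNA of two-cell embryos was measured on 16 arrays in 4 groups of 4. Per the labels' protocols, RNA was extracted with Picopure and labelled with an ENZO kit. The authors deposited linear intensity values, which from their equal trimmed means were scaled per array, with 45101 probe sets (64 controls). The sources used here name neither the software nor the scaling method. Probe sets were named through the platform annotation: 34945 had 1 symbol, 932 several and 9160 none. No symbol needed updating. The members and gene lists were chosen with earlier results of these data known.

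Values were taken as log2(intensity + 16). Probe sets at or above the array's 40th percentile on at least 4 arrays were kept (31934). A model of 4 group means was fitted with limma 3.58.1 (R 4.3.3, empirical Bayes with an intensity trend). P-values were adjusted by Benjamini-Hochberg over all probe sets tested, with 0.05 as threshold. A gene was read from its probe set with the highest mean log2 value over all arrays, and 15258 genes were tested. Genes named were the members and, of the related genes, the 4 largest called changes each way in each kind. For these related genes, only those whose treated and untreated arrays did not overlap were ranked. Kif11 was added as the 1 related gene called between strains, after its values were seen. The fit was tested on simulated data. The number of arrays limits the precision. Arrays of a group correlated at 0.978 to 0.991, and no 2 arrays were identical. Alternatives were other scalings, pseudocounts, filters, fits and probe set rules, the replicate block, and leaving out each array.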

Additional observations from a re-analysis of the deposited data

Results flagged for a closer look

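Of 200 sets of 4 arrays (each regulator in each group), 8 had 1 array whose gap to the nearest other exceeded Dixon's critical value as a share of the set's range, which chance alone does in about 1 of 20 sets. Mos was at 24.2 in BBB_amanitin replicate 2, against 52.9 to 54.4 on the other 3 arrays. Ccnd3 was at 229.2 in BBB replicate 3, against 195.9 to 200.6. Ccne1 was at 705.6 in BBB_amanitin replicate 4, against 594.7 to 605.9. Ccne2 was at 67.3 in BCB_amanitin replicate 3, against 32.6 to 36.1. Rb1 was at 2729.6 in BBB_amanitin replicate 1, against 2901.4 to 2922.2, and Mad2l1 was at 4470.8 on the same array, against 4902.8 to 4960.7. Cdc25b was at 1418.2 in BCB_amanitin replicate 2, against 1278.6 to 1291.4. Aurkc was at 868 in BCB replicate 1, against 777 to 786.8. No regulator had an amanitin effect that differed between BBB and BCB by the interaction test.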

How the results depend on the processing

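With amanitin, 19 regulators fell at least 2-fold in each kind, and 8 in each were higher at least 2-fold. On the hybridization scale 11 were higher and 25 lower in BBB, and 6 and 30 in BCB, where 21.9% and 42.8%, and 15.2% and 48.0%, of all genes were. On the poly-A scale 0 were higher, and 45 were lower in BBB and 46 in BCB, where 84.6% and 84.4% of all genes were lower. Between strains, array medians centred gave 1 call (Ttk, lower in BCB with amanitin), and array weights gave 1 higher (Bub1b) and 1 lower (Bub1) in untreated BCB. Of all 15258 genes, array medians centred called 4 higher and 10 lower with amanitin, against 6 and 6 in the main fit. Array weights called 117 higher and 123 lower untreated, against 58 and 41 in the main fit. With each array left out in turn, 22 to 23 were higher and 23 to 24 lower in BBB, 21 to 22 and 21 to 24 in BCB, and 0 to 1 lower in BCB against BBB with amanitin, while the other strain and interaction counts stayed at 0.

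The values showed no pairing of arrays by replicate number: deviations of same-numbered arrays correlated at −0.087 to 0.107, with 1 of 24 pairs over 0.1. Whether same-numbered samples were handled together cannot be told from this. With the replicate block 22 were higher and 24 lower in BBB, and 22 and 22 in BCB, where Ccnd1 lost its call (−0.34, adjusted p 0.0501).

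Of the log2 changes with amanitin that passed on the array scale, those listed next changed sign, and the cause was not tested. Some of them passed in the new direction. With quantile normalization these were Pttg1 −0.17 and Birc5 −0.098 in BBB, and Pttg1 −0.11, Ccnd1 0.0046 and Birc5 −0.16 in BCB. Averaged over the probe sets of a gene they were Pttg1 −0.66, Cdk4 0.015, Rbl1 −0.066 and Bub1 0.30 in BBB, and Pttg1 −0.57, Cdk4 0.18, Rbl1 −0.14, Bub1 0.25 and Cenpe −0.095 in BCB. On the hybridization scale they were Pttg1 −0.049, Cdc25a −0.12, Bub1b −0.016 and Birc5 −0.10 in BBB, Pttg1 −0.25, Cdc25a −0.079, Rb1 −0.16, Ccnb2 −0.22, Pkmyt1 −0.24, Plk4 −0.25, Mad2l1 −0.0091, Ttk −0.44, Aurkc −0.27, Birc5 −0.48 and Cenpe −0.54 in BCB, and, for the other probe sets, Ccnd1 −0.024 in BBB and Cdc27 −0.26 in BCB. On the poly-A scale they were, in BBB, Mos −0.25, Wee2 −0.98, Ccnb3 −0.49, Fzr1 −0.73, Anapc1 −0.82, Pttg1 −1.48, Ccnd3 −0.99, Cdc25a −1.52, Rb1 −1.24, Rbl1 −0.58, E2f1 −0.54, E2f4 −0.34, Ccnb2 −1.21, Cdc25b −0.11, Plk4 −1.30, Bub1b −1.38, Mad2l1 −1.18, Ttk −1.28, Aurkc −1.34, Birc5 −1.53 and Cenpe −1.36. In BCB they were Mos −0.32, Wee2 −0.98, Ccnb3 −0.88, Fzr1 −0.62, Anapc1 −0.80, Pttg1 −1.44, Ccnd3 −1.04, Cdc25a −1.24, Rb1 −1.35, Rbl1 −0.81, E2f1 −0.51, E2f4 −0.54, Ccnb2 −1.36, Cdc25b −0.17, Pkmyt1 −1.38, Plk4 −1.43, Mad2l1 −1.20, Ttk −1.62, Aurkc −1.45, Birc5 −1.67, Cenpe −1.72, Nuf2 −0.025, Nek7 −0.098 and Arpp19 −0.0077. For the other probe sets they were Cdc27 −1.06, Ccnd1 −1.001, Cdk4 −0.46, Ccna2 −0.94, Nek2 −0.27 and Bub3 −0.96 in BBB, and Cdc27 −1.41, Cdk4 −0.46, Ccna2 −1.06, Nek2 −0.36, Bub1 −0.039 and Bub3 −0.93 in BCB. Among changes without a call on the array scale, Pkmyt1 (−1.65) and Fbxo43 (−0.92) in BBB and Bub1b (−1.88) and Cdkn1b (−1.35) in BCB turned from above to below 0 on the poly-A scale, and on the hybridization scale as well (−0.28, −0.23, −0.74 and −0.41). All of these passed as lower on the poly-A scale, and Bub1b alone did so on the hybridization scale. The other such values that changed sign, those of Fbxo43, Cdkn1b, Bub1b and Pkmyt1, did not pass where they did. The median of all regulators in BCB, −0.015, was 0.0036 with array medians centred and 0.0034 to 0.019 without BCB replicate 1, BCB replicate 2 or BCB_amanitin replicate 1. No leave-one-out value changed sign among the called regulators. Both control scales rest on few probe sets (9 and 12), and which scale tracks RNA per embryo is not given in the sources used here.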
